A study of Mus musculus with 2 samples.

Results

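Glycolysis and hypoxia response genes were followed as a set of 34 listed genes among 32285 genes in single cells of mouse esophageal and stomach organoids. The set was chosen by name, with 20 genes of sugar uptake, glycolysis and pyruvate handling and 14 genes of oxygen sensing and the hypoxia response. All 34 were detected. Organoids are small epithelial structures grown in a gel from stem cells of a tissue. Those compared here came from untreated C57BL/6 wild-type mice, were grown for about one week in Matrigel, and were made by combining cells of several mice, so that each tissue was 1 sample. The medium of the stomach organoids, which came from glands of the corpus, held WNT3A and R-spondin1 conditioned medium and gastrin, while the esophageal medium held forskolin. Both media held EGF, noggin, FGF-10, N-acetylcysteine, nicotinamide, a TGF-β receptor kinase inhibitor and a ROCK inhibitor. Tissue and medium therefore cannot be told apart, and no difference between the tissues has a replicate check or a p-value.

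Glycolysis splits glucose into pyruvate in the cytosol and gains ATP without oxygen. When oxygen is low, HIF1A protein escapes the prolyl hydroxylases that mark it for destruction, pairs with ARNT and switches on genes with a short core motif in their control regions. Its known targets include nearly every glycolytic step, the exporter of lactate, brakes on mitochondrial respiration, and factors that act on vessels, acidity and mitochondrial turnover. Squamous epithelium of the esophagus is layered above a basal layer that lies nearest the vessels, whereas the columnar epithelium of the stomach is a single layer of glands and pits.

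Transcripts were captured cell by cell in droplets and each molecule was counted once by its unique molecular identifier (UMI). The 1099 barcodes held 31825863 UMIs, and a sample tag assigned 919 of them to esophageal and 180 to stomach organoids. After limits on genes, UMIs and mitochondrial share, 702 esophageal cells with squamous keratins (18456220 UMIs) and 46 stomach cells with columnar keratins (2469229 UMIs) were compared. Of the 90 stomach-tagged cells within these limits, 21 had squamous and 20 mixed keratins. Of the 765 esophageal-tagged cells, 24 had columnar and 32 mixed keratins. Those cells were left out, and the reason for the mismatch of tag and keratins was not tested. Levels are UMIs per 1000000 UMIs of the group (CPM), and intervals are 95% intervals for counting error only. Without the upper limits on UMIs and genes, 724 squamous and 87 columnar cells remained. These limits thus removed a far larger share of the columnar cells. Barcodes above them are called larger cells below by their counts alone. The paper dropped such barcodes from its tissue samples as potential doublets, and whether those here hold more than 1 cell was not tested. Results with them kept are given below with that limit. The median compared cell held 23460 UMIs in the squamous and 59575.5 in the columnar group, and its mitochondrial share was 3.70% and 7.47%. Markers of squamous basal cells summed to 9099 CPM in squamous and 327 CPM in columnar cells, and markers of columnar epithelium to 452 and 3259 CPM. Markers of fibroblasts, endothelium, erythroid cells and smooth muscle each summed to at most 2.02 CPM in either group. Immune markers summed to 65.6 CPM (162 UMIs) in columnar cells and 0.0542 CPM in squamous cells. Only 1 of these 6 markers reached 10 UMIs over both groups, and 3 had no UMI in columnar cells. Markers of G2/M phase summed to 1592 CPM in squamous and 265 CPM in columnar cells and those of S phase to 615 and 330.1 CPM, and their part in the tissue differences was not tested. The squamous keratins used to select the cells were still seen in columnar cells at 1.47% of their squamous level, and the columnar keratins in squamous cells at 2.22% of their columnar level. A level in the other group of about that size is read here as background. Both shares are bounded by the selection on these same keratins, so they are a rough guide and not a separate measure of background.

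The core motif of the hypoxia response is written ACGTG or GCGTG, and its presence was described in the RefSeq promoters (assembly GRCm38.p6, 250 bases before to 50 after the start) that matched 32 of the 34 genes. Of these, 26 (81.2%) held either motif on either strand in the first-listed promoter, against 43.8% of 27025 genes. Base composition differs as well, with a median GC content of 64.8% in the members and 52.7% in all genes, and among genes of 60 to 70% GC the share was 68.6%. For ACGTG alone the share was 59.4% of the members, 19.7% of all genes and 27.7% of genes of 60 to 70% GC. Hypoxia members held either motif in 11 of 12 promoters and glycolysis members in 15 of 20. The letters CACGTG hold ACGTG on both strands and are also the box bound by other factors, such as MYC. A match describes letters and not a bound site. No promoter matched Ndufa4l2 or Bnip3l. The 6 promoters printed here are a choice among the genes discussed below and do not stand for the whole set. The motif is in capitals on either strand (CACGT and CACGC are its reverse complement). Bnip3 (chr7:138909457-138909756, minus strand), Pgk1 (chrX:106186850-106187149, plus strand), Slc16a3 (chr11:120948817-120949116, plus strand), Ldha (chr7:46845554-46845853, plus strand) and Car9 (chr4:43506776-43507075, plus strand) are hypoxia-linked genes that were highest in 1 squamous state. Ldhb (chr6:142507908-142508207, minus strand) is the lactate dehydrogenase gene that separated the tissues most.
Bnip3: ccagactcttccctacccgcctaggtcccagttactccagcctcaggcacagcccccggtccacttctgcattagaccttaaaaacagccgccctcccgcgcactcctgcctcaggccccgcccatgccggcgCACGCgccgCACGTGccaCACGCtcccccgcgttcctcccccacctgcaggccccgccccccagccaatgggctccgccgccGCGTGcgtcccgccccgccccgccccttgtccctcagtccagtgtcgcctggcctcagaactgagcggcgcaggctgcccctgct
Pgk1: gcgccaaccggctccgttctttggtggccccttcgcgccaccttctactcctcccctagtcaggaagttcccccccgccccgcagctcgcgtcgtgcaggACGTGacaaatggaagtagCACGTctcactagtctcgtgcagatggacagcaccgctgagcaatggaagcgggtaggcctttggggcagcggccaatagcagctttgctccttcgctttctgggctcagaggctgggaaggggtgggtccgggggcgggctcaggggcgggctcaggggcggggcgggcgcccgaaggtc
Slc16a3: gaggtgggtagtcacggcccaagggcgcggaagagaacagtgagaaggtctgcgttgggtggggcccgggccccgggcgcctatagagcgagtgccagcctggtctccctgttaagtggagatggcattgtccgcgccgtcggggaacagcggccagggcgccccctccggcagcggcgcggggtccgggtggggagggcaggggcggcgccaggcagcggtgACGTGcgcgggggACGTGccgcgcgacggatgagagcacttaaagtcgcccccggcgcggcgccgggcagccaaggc
Ldha: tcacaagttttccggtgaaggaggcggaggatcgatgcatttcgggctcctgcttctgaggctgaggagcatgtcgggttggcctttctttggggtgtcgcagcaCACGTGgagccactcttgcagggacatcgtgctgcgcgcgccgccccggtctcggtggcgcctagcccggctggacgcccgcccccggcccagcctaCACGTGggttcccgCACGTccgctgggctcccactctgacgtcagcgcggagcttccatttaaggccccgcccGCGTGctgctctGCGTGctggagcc
Car9: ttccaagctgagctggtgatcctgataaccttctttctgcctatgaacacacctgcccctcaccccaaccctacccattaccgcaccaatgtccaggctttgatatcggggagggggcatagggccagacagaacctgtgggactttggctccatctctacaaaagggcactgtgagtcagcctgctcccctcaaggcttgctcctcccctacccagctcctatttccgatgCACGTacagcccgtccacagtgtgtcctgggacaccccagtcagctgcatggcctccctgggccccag
Ldhb: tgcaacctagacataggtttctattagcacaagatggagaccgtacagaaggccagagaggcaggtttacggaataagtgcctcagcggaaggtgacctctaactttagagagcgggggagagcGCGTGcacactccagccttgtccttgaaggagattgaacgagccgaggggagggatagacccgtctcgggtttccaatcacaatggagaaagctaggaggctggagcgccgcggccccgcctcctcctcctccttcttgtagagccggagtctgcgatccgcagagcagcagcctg
The Ldha promoter held ACGTG 5 times when both strands are counted, 4 of them within its 2 CACGTG boxes, and the Bnip3 promoter held 5 matches in all. The Ldhb promoter held GCGTG 1 time and no ACGTG. Tpi1, Vegfa and Aldoa were highest in the same squamous state as Bnip3 and Pgk1. Their first-listed promoters held neither motif, while other listed promoters of Vegfa and Aldoa held a match.

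The first comparison asked how glycolysis and hypoxia genes differed between squamous esophageal and columnar stomach cells. Most lay within 2-fold, as did most measured genes (26 of 34 members and 8379 of 12717 genes). Of the 20 glycolysis genes, 16 lay within 2-fold, 1 was at least 2 times higher in squamous cells (14.8% of all 12717 measured genes were) and 3 were at least 2 times higher in columnar cells (19.4% of measured genes were). Of the 14 hypoxia genes, 10 lay within 2-fold, 2 were at least 2 times higher in squamous and 2 in columnar cells. The median log2 fold of squamous over columnar was -0.28 over the glycolysis genes and -0.15 over the hypoxia genes, beside -0.11 over all measured genes. Summed glycolysis transcripts made up 13653 CPM in squamous and 14579 CPM in columnar cells, a ratio of 0.936 (0.926 to 0.947). Summed hypoxia transcripts made up 2277 and 1729 CPM, a ratio of 1.32 (1.28 to 1.36), which became 0.890 (0.862 to 0.920) without Ndufa4l2. The interval of the fold lay above 1 for 7 and below 1 for 12 glycolysis genes, and above 1 for 5 and below 1 for 7 hypoxia genes. Of all measured genes 23.5% lay above and 30.9% below, and of those with at least 100 UMIs 28.9% and 32.8%. Intervals narrow with counts, so these shares are not matched in depth to the members.

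**Figure D1:**
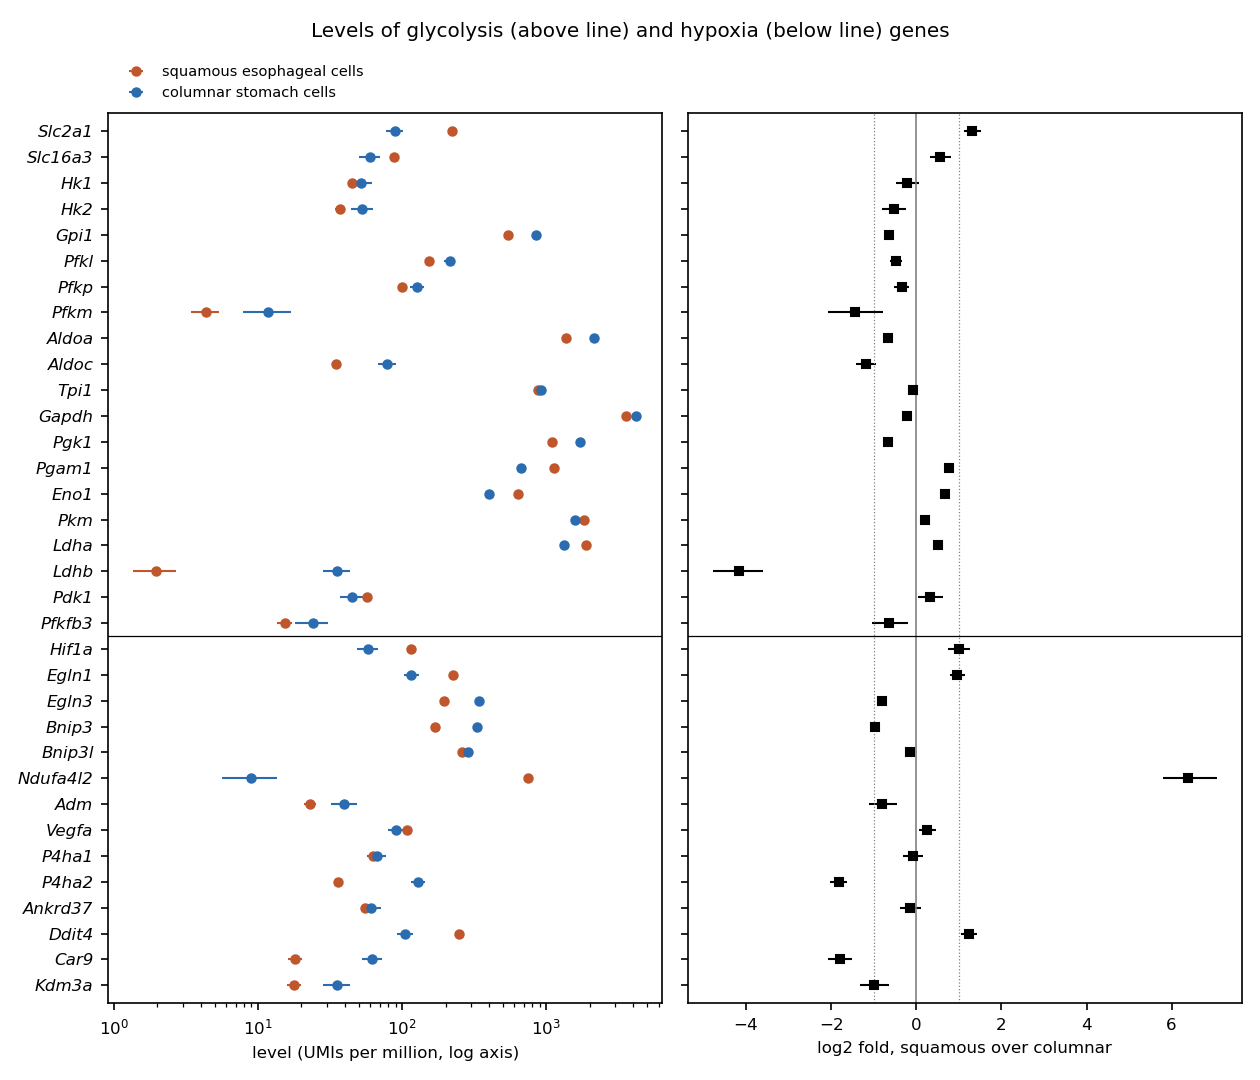
Level of each gene in squamous esophageal and columnar stomach cells (left, CPM on a log axis) and log2 fold of squamous over columnar (right), with 95% counting intervals as bars, dotted lines at 2-fold, glycolysis genes above and hypoxia genes below the horizontal line. Ndufa4l2 at 6.39 and Ldhb at -4.17 lie furthest from 0, and 26 of the 34 genes lie between the dotted lines.

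Both transporters were higher in squamous cells. Slc2a1, the basal glucose importer GLUT1, stood at 220 CPM in squamous and 88.7 CPM in columnar cells, 2.48 times higher (2.16 to 2.85). After every cell was thinned to 10000 UMIs, it was seen in 83.6% of 433 squamous and 40.9% of 44 columnar cells. Before thinning it was seen in 71.5% and 91.3%, so that the deeper columnar cells had the larger share. Slc16a3, which encodes the lactate exporter MCT4, stood at 88.2 and 59.5 CPM, 1.48 times higher in squamous cells (1.25 to 1.77). With the larger cells above the UMI and gene limits kept, Slc16a3 was 2.34 times higher, and with equal weight for every cell 1.07 times.

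The early steps of glycolysis leaned to columnar cells. Hexokinases trap glucose by phosphorylation. Hk1 stood at 44.9 and 51.8 CPM, a difference within counting error, and Hk2 at 36.9 and 53.1 CPM. Gpi1, the isomerase that follows, stood at 541 CPM in squamous and 846 CPM in columnar cells. Among the phosphofructokinases, which commit sugar to glycolysis, Pfkl stood at 154 and 214 CPM and Pfkp at 100.2 and 127 CPM. Pfkm, the muscle form, was low in both, at 4.33 and 11.7 CPM (80 and 29 UMIs), 2.71 times higher in columnar cells (1.71 to 4.19). This fold rests on few UMIs, and with equal weight for every cell its log2 value moved from -1.44 to -0.13. Aldoa, the main aldolase, stood at 1361 and 2156 CPM. Aldoc, the aldolase best known from brain, stood at 35.0 and 79.0 CPM, 2.26 times higher in columnar cells (1.91 to 2.65).

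The later steps split by enzyme. Tpi1, the triose isomerase, stood at 870 CPM in squamous and 914 CPM in columnar cells and was the enzyme closest between the tissues. Gapdh, the dehydrogenase that follows and the most abundant member, stood at 3578 and 4184 CPM. Pgk1, which makes the first ATP of the pathway, stood at 1093 and 1723 CPM, 1.58 times higher in columnar cells (1.53 to 1.63). The next steps went the other way. Pgam1, a phosphoglycerate mutase, stood at 1128 and 663 CPM, 1.70 times higher in squamous cells (1.62 to 1.79), and Eno1, an enolase, at 640 and 398 CPM, 1.61 times higher (1.51 to 1.72). Pkm, which makes pyruvate, stood at 1811 and 1581 CPM. Over the 14 enzymes, 10 had an interval below 1, 3 above and 1 included 1. Of measured genes with at least 100 UMIs, 32.8% lay below and 28.9% above. Intervals narrow with counts, and Gapdh held 66032 and 10332 UMIs where Pfkm held 80 and 29. The enzymes and this share are therefore not matched in depth. With TMM scaling Tpi1 was on the squamous side (log2 0.12), and with the larger cells kept so was Pfkp (log2 0.04).

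Pyruvate handling showed the widest gap of the glycolysis genes. Ldha, the lactate dehydrogenase subunit that favours lactate, stood at 1874 CPM in squamous and 1325 CPM in columnar cells, 1.41 times higher (1.36 to 1.47). Ldhb, the subunit typical of tissues that use lactate, stood at 1.95 CPM (36 UMIs) and 35.2 CPM (87 UMIs), 18.1 times higher in columnar cells (12.1 to 27.4). Thinned to 10000 UMIs, an Ldhb transcript was seen in 27.3% of columnar cells (15.0 to 42.8) and 1.62% of squamous cells (0.652 to 3.30), and unthinned in 67.4% and 4.13%. The log2 fold of Ldhb ranged from -4.33 to -3.11 over the alternatives, the latter without the keratin call. Pdk1, a pyruvate dehydrogenase kinase, stood at 56.6 and 45.0 CPM, but with equal weight for every cell it was on the columnar side (log2 -0.20). Pfkfb3, which makes an activator of phosphofructokinase, stood at 15.4 and 23.9 CPM, 1.55 times higher in columnar cells (1.15 to 2.06). With the larger cells kept it was instead 1.14 times higher in squamous cells.

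Hif1a and Egln1 were higher in squamous cells and Egln3 in columnar cells. Hif1a, the oxygen-regulated subunit, stood at 116 CPM in squamous and 57.9 CPM in columnar cells, with a fold just under the threshold of 2 (1.69 to 2.39). Egln1, the main prolyl hydroxylase (PHD2), stood at 225 and 116 CPM, 1.95 times higher (1.73 to 2.20). Egln3, the hydroxylase that hypoxia itself induces (PHD3), stood at 196 and 341 CPM, 1.74 times higher in columnar cells (1.61 to 1.88). Egln3 was 74.6% of Egln1 and Egln3 together in columnar and 46.5% in squamous cells.

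Among the targets, Ndufa4l2 stood apart from every other member. Ndufa4l2, which encodes a small mitochondrial protein that lowers respiratory chain activity in hypoxia, stood at 746 CPM in squamous cells (13761 UMIs) and 8.91 CPM in columnar cells (22 UMIs). It was 83.7 times higher in squamous cells (55.3 to 134). The columnar level was 1.19% of the squamous level, below the 1.47% at which the squamous keratins were seen in columnar cells. Thinned to 10000 UMIs, it was seen in 73.7% of squamous cells (69.3 to 77.8) and 13.6% of columnar cells (5.17 to 27.4), where no cell held more than 1 UMI. Unthinned shares were 74.8% and 43.5%. The fold ranged from 45.3 without the keratin call to 124 with the larger cells kept.

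Ddit4, an inhibitor of mTORC1 that stress and hypoxia induce, was also higher in squamous cells, at 247 and 104 CPM, 2.36 times (2.08 to 2.69). Vegfa, the vessel growth factor, stood at 108 and 90.7 CPM. A single cell gave 26.3% of the columnar Vegfa UMIs, and with the larger cells kept Vegfa was 2.13 times higher in squamous cells.

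Other targets were higher in columnar cells. P4ha2, a collagen prolyl hydroxylase subunit, stood at 36.1 CPM in squamous and 128 CPM in columnar cells, 3.55 times higher (3.09 to 4.06), while its paralog P4ha1 stood at 62.6 and 66.4 CPM, within counting error. Car9, a membrane carbonic anhydrase that is among the steepest hypoxia targets, stood at 17.99 and 62.0 CPM, 3.44 times higher in columnar cells (2.83 to 4.18). With equal weight for every cell, the log2 fold of Car9 moved from -1.78 to -1.07. Bnip3, a mitophagy receptor, stood at 168 and 330.1 CPM, 1.97 times higher (1.82 to 2.13), and Kdm3a, a histone demethylase, at 17.8 and 35.2 CPM, 1.98 times higher (1.55 to 2.52), both just under the threshold. Bnip3l, the related receptor NIX, stood at 259 and 288 CPM. Ankrd37, an ankyrin repeat gene, stood at 54.9 and 60.7 CPM, within counting error. With TMM scaling Bnip3l, Ankrd37 and P4ha1 were on the squamous side, at log2 folds of 0.04, 0.04 and 0.10. Adm, a vasodilator peptide, stood at 22.9 and 39.7 CPM, but 1 cell gave 17.1% of its squamous UMIs. With the larger cells kept Adm was 1.03 times higher in squamous cells.

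Shares within a gene family do not depend on how a group is scaled. Ldhb made up 2.59% of Ldha and Ldhb UMIs in columnar cells (2.08 to 3.19) and 0.104% in squamous cells (0.0728 to 0.144). P4ha2 made up 65.8% of its pair in columnar (61.4 to 70.1) and 36.6% in squamous cells (34.4 to 38.8), and Bnip3l made up 46.6% (44.1 to 49.1) and 60.7% (59.6 to 61.8). The phosphofructokinases were mixed alike, with Pfkl at 60.6% and 59.6% and Pfkp at 36.1% and 38.7% of the 3. Hk1 made up 49.4% (43.2 to 55.7) of the hexokinases in columnar and 54.9% (52.3 to 57.4) in squamous cells, and these intervals overlap. Capture differs between genes, so shares are read between groups and not as protein ratios.

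**Figure D2:**
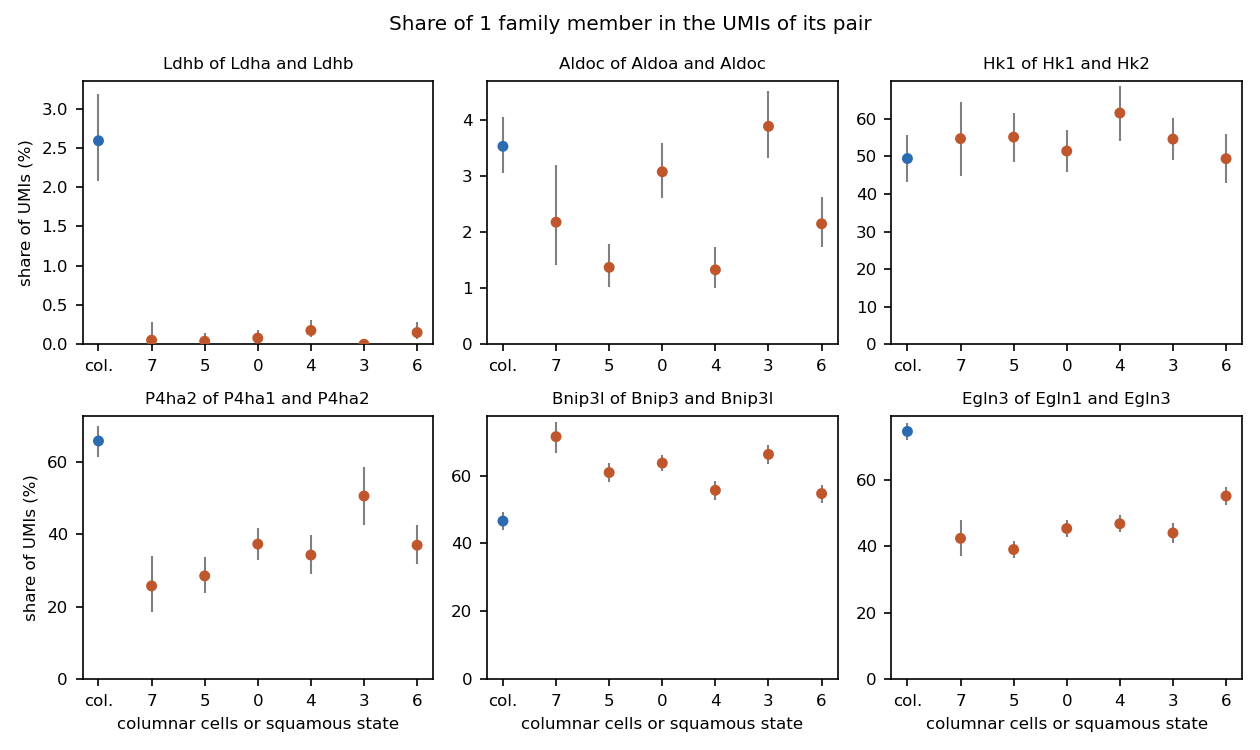
Share of 1 gene in the UMIs of a pair (%), in columnar stomach cells (first point, col.) and in 6 squamous states by number, with 95% exact binomial intervals as bars. The Ldhb and Egln3 shares of every squamous state lie below the columnar share, and the Aldoc share ranges from 1.33% to 3.89% among squamous states.

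The genes around these pathways gave a mixed picture between the tissues. Of 18 measured genes of other glycolytic isoforms and side steps, 3 were at least 2 times higher in squamous and 5 in columnar cells. Pgp, a phosphatase that clears side products of glycolysis, stood at 64.7 and 233 CPM, and the phosphoglucomutases Pgm2 and Pgm1 at 17.1 and 53.5 CPM and at 69.2 and 111 CPM. Eno1b stood at 18.4 and 8.10 CPM, but it is a near copy of Eno1 and its reads cannot be placed with certainty. Of 13 genes of pyruvate entry and use in mitochondria, 2 were at least 2 times higher in columnar cells. They were Pdk2, another pyruvate dehydrogenase kinase, at 1.08 and 16.2 CPM and Pcx, pyruvate carboxylase, at 8.29 and 60.3 CPM. The dehydrogenase genes Pdha1 and Pdhx stood at 79.4 and 142 CPM and at 12.0 and 6.48 CPM. Of 3 measured gluconeogenesis genes only Fbp2, a fructose bisphosphatase, passed 2-fold, at 0.813 and 14.2 CPM, while Pck2 stood at 65.1 and 39.7 CPM and G6pc3 at 18.6 and 26.3 CPM.

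Among 11 other genes of the HIF machinery, only Cited2 passed 2-fold. Cited2, a HIF target that competes with HIF for its coactivators, stood at 47.8 CPM in squamous and 282 CPM in columnar cells, 5.90 times higher (5.33 to 6.52). The hydroxylases Egln2 and Hif1an and the coactivator Ep300 stood at 27.6 and 53.1 CPM, 8.51 and 15.4 CPM, and 31.3 and 50.6 CPM. Of 35 other hypoxia targets, 7 were at least 2 times higher in squamous and 8 in columnar cells. Car12, a carbonic anhydrase related to Car9, stood at 131 and 4.05 CPM, 32.3 times higher in squamous cells (17.5 to 67.4), the opposite direction to Car9. Stc2, a stanniocalcin, stood at 40.6 and 126 CPM, and Plod2, a collagen lysyl hydroxylase, at 16.6 and 5.67 CPM.

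The second comparison asked how the genes varied among squamous states. States were clusters of squamous cells built without the 34 genes and without the other pathway genes, and 6 of 8 clusters (436 cells) were deep enough to compare. State 6, 55 cells led by Csf3, Inhba, Cald1 and Tnc, had the most glycolysis and hypoxia transcripts. State 7, 29 S phase-like cells led by Hells, Cdc6 and Dtl, had the least. The highest state held mainly these 55 cells in every clustering tried (77.9% to 100% of its cells), but the lowest did not. Cells of state 7 made up 16.2% of the lowest state at Leiden resolution 0.5, and 0% of it with at least 10000 UMIs per cell, with members among the variable genes and, for glycolysis, at resolution 1.2. Between them stood state 5 (68 G2/M-like cells, led by Mki67, Aspm and Cenpf) and state 0 (142 cells low in cell cycle genes). So did state 4 (70 cells led by histone genes and Birc5, with G2/M markers at 3179 CPM). State 3 (72 cells led by Ces1f, S100a8 and Ly6d, with suprabasal markers at 27620 CPM) stood between them too. Cells of 1 state share a sample, so these are descriptions of 1 culture.

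Summed glycolysis transcripts stood at 17291 CPM in state 6, 14657 in state 3, 14422 in state 4, 12912 in state 0, 12035 in state 5 and 10999 in state 7. The highest was 1.57 times the lowest (1.54 to 1.60), and no interval of a state overlapped that of its neighbour in this order except those of states 3 and 4. Summed hypoxia transcripts followed the same order, at 2965, 2437, 2382, 2221, 1977 and 1544 CPM, with a ratio of 1.92 (1.82 to 2.02). Without Ndufa4l2 the ratio was also 1.92 but the order was not the same, with 2202 CPM in state 6, 1636 in state 4, 1467 in state 3, 1443 in state 0, 1436 in state 5 and 1149 in state 7. With the top cell of each hypoxia gene left out of state 6, the ratio was 1.77. The clusters left out for shallow cells, states 1 and 2, held 266 of the 702 squamous cells. They stood at 14120 and 11660 CPM of glycolysis and at 2136 and 2142 CPM of hypoxia transcripts. State 2 (131 cells) held the markers of superficial differentiated squamous cells, at 15305 CPM against 263 CPM in all other squamous cells. The compared states therefore do not span all squamous cells.

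In state 6 most of the set was higher. Its level was above that of the other 5 states, with an interval above 1, for 15 of 20 glycolysis and 12 of 14 hypoxia genes, and below for none. State 6 was picked as the highest by the sums of these same genes, so these counts follow in part from that choice. Of all genes tested 21.2% had an interval above and 9.63% below 1, and of genes with at least 100 UMIs 26.0% and 12.0%. Many members held far more UMIs, such as Gapdh with 10264 in state 6. Intervals narrow with counts, so these shares are not matched in depth, nor are those given below for other states. The median fold was 1.30 over the glycolysis and 1.40 over the hypoxia genes, beside 1.08 over all genes. At least 2 times higher were 2 glycolysis and 2 hypoxia genes, beside 6.39% of genes tested. Adm stood at 89.1 CPM in state 6 and 14.2 CPM in the others, 6.28 times higher (5.15 to 7.66), with 34.8% of its UMIs in 1 cell and a fold of 4.19 without that cell. Car9 stood at 54.2 and 13.1 CPM, 4.15 times higher (3.28 to 5.23), and was seen in 34 of 55 cells. Slc16a3 stood at 202 and 71.5 CPM, 2.83 times higher (2.53 to 3.16). Ldhb also passed 2-fold, but with 9 UMIs.

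Smaller differences in state 6 were seen at many steps between glucose and lactate and among the targets. Egln3 was 1.85, Bnip3 1.80, Tpi1 1.59, Vegfa 1.56, Ddit4 1.503, Aldoa 1.45, Ldha 1.45, Eno1 1.40 and Pgk1 1.36 times the level of the other states. Gpi1 at 1.04, Hk1 at 1.15, Pdk1 at 0.986, Pfkm at 0.735, Pfkfb3 at 1.38, Kdm3a at 0.992 and Ankrd37 at 0.870 times had intervals that included 1. Ndufa4l2 was only 1.06 times higher (1.01 to 1.11). State 6 also had the lowest median mitochondrial share, 3.24%, and the most dissociation stress transcripts, 5535 CPM, of the 6 states, where the others ranged from 3.53% to 4.75% and from 3908 to 4574 CPM. The part of these in the result was not tested.

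**Figure D3:**
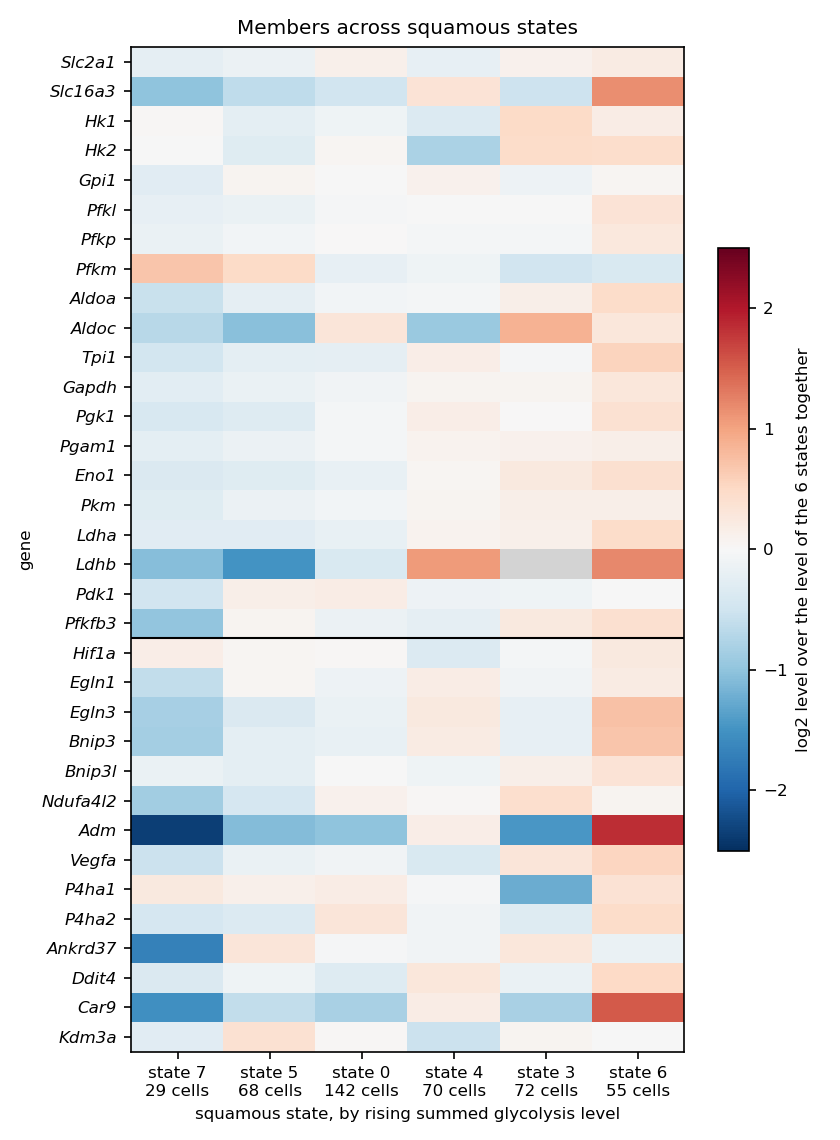
Level of each gene in 6 squamous states relative to the level of the 6 states together (log2, color), with states ordered by summed glycolysis level, glycolysis genes above and hypoxia genes below the line, and grey where no UMI was seen. Most genes run from blue in state 7 to red in state 6, while Aldoc and Ndufa4l2 are highest in state 3 and P4ha1 is lowest there.

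State 7 was lower for much of the set. Its interval lay below 1 for 14 of 20 glycolysis and 9 of 14 hypoxia genes and above for none. Of tested genes with at least 100 UMIs, 10.9% lay below and 12.0% above. State 7 was picked as the lowest by the sums of the members, so its counts too follow in part from that choice. The steepest contrasts of state 6 over state 7 were Adm at 18.4 times (8.30 to 50.6), Car9 at 8.39 times (4.13 to 19.9), Slc16a3 at 4.55 times (3.44 to 6.13), and Egln3 and Bnip3 at 2.93 and 2.92 times. Adm and Car9 had only 6 and 8 UMIs in state 7. The G2/M-like state 5 was low too, with 14 of 20 glycolysis and 9 of 14 hypoxia intervals below 1, beside 14.6% of tested genes with at least 100 UMIs. State 4 also held G2/M markers, at 3179 CPM beside 4538 CPM in state 5. S phase markers stood there at 1019 CPM, beside 1586 CPM in state 7. For the members state 4 was mixed. Its intervals lay above 1 for 9 and below 1 for 5 glycolysis genes, and for 4 and 4 hypoxia genes. Of tested genes with at least 100 UMIs, 16.4% lay above and 20.9% below there.

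Among the 6 compared states, some members went against the common order. Ndufa4l2 was highest in state 3 at 970 CPM, where it was 1.43 times the other states (1.37 to 1.495), and lowest in state 7 at 395 CPM. Aldoc was 2.18 times higher in state 3 (1.80 to 2.62), at 59.7 and 27.4 CPM. Hk1 and Hk2 stood at 64.1 and 53.3 CPM in state 3 and at 51.6 and 52.9 CPM in state 6, with overlapping intervals. P4ha1 was lowest in state 3, at 28.4 CPM against 74.9 CPM in the other states. These traits were not particular to state 3. The shallow state 2, left out of the comparison, stood at 970 CPM of Ndufa4l2, 61.6 CPM of Aldoc and 8.33 CPM of P4ha1 (10 UMIs). Hif1a varied least among the oxygen sensing genes, from 95.7 CPM in state 4 to 144 CPM in state 6. Ankrd37 ranged from 17.0 CPM in state 7 to 66.9 CPM in state 5, and Kdm3a from 12.8 CPM in state 4 to 24.3 CPM in state 5.

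The third comparison asked whether the genes vary together from cell to cell. At 10000 UMIs per cell, the summed glycolysis level of squamous cells ran from 8 to 286 UMIs with a median of 132, and that of columnar cells from 28 to 356 with a median of 120.5. The summed hypoxia level ran from 0 to 84 with a median of 17 in squamous and from 0 to 58 with a median of 15.5 in columnar cells. The ranges of the tissues overlapped almost wholly.

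Across squamous cells both sums went together, with a Spearman correlation of 0.77 over 433 cells, and of 0.69 over 44 columnar cells. These are descriptions over cells that share a library. Within states it was 0.75 in state 0, 0.68 in state 3, 0.86 in state 4, 0.75 in state 5, 0.53 in state 6 and 0.66 in state 7. When the hypoxia sum was limited to the targets other than Ndufa4l2, the squamous value was 0.64, and the values within states ran from 0.40 in state 6 to 0.81 in state 4. Depth before thinning correlated at 0.14 with glycolysis and -0.01 with hypoxia sums, the mitochondrial share at -0.34 and -0.20, and dissociation stress genes at 0.17 and 0.24. In columnar cells depth correlated at -0.04 and -0.36.

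**Figure D4:**
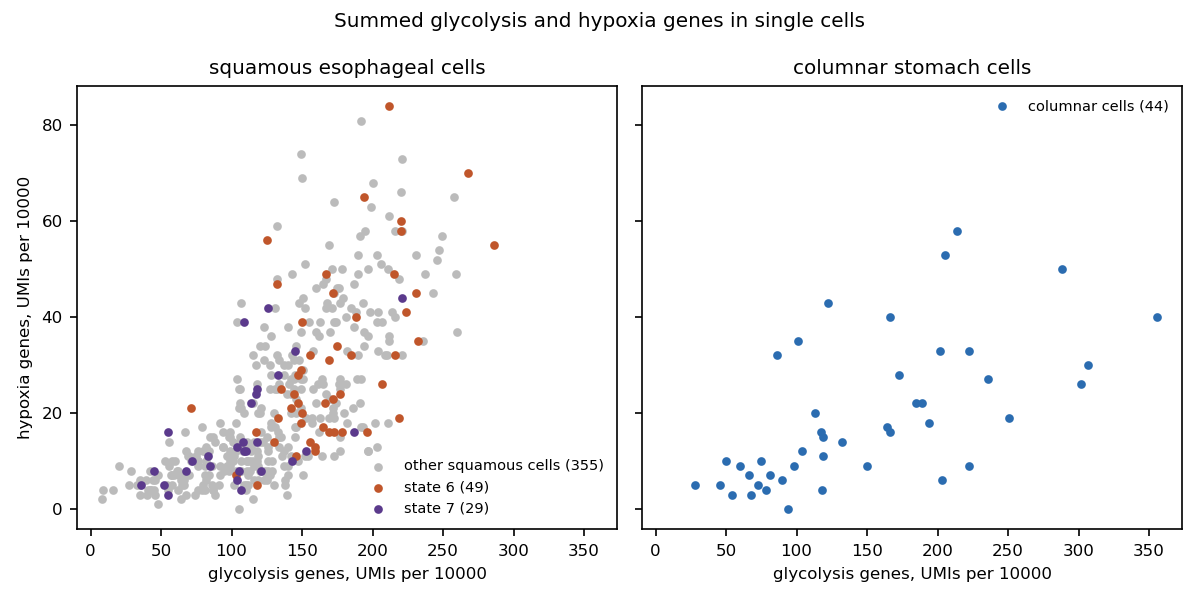
Summed UMIs of the 20 glycolysis genes (x axis) and of the 14 hypoxia genes (y axis) in each cell thinned to 10000 UMIs, for 433 squamous cells with states 6 and 7 marked (left) and 44 columnar cells (right). Both sums rise together in both tissues, with Spearman correlations of 0.77 and 0.69.

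Single pairs of members, within and between both sets, were also compared. In squamous cells the closest pairs were Pgk1 and Ndufa4l2 at 0.68, Egln3 and Ndufa4l2 at 0.67, Pgk1 and Pgam1 at 0.65 and Tpi1 and Ldha at 0.64. In columnar cells, where Ndufa4l2 was near 0, they were Aldoa and Gapdh at 0.88, Aldoa and Pgam1 at 0.83, Gapdh and Pgam1 at 0.82 and Pgk1 and Pkm at 0.80. Egln3 and Bnip3 reached 0.76 there. Ldhb was the member that ran against Ldha, at -0.46 over 44 columnar cells, with few UMIs per cell. With the summed targets in squamous cells, Egln3 correlated at 0.70, Pgk1 at 0.69, Tpi1 at 0.64, Aldoa at 0.62 and Egln1 at 0.56, while Hif1a, the transcript of the regulator itself, correlated at 0.10.

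Ndufa4l2 had the largest cell-to-cell variance for its mean of the 34 genes in squamous cells. Its variance was 9.64 times its mean over squamous cells, where 432 genes of a mean between 2 and 10 UMIs had a median of 1.56. Its level ran from 0 to 43 UMIs with a median of 4, and 114 of 433 cells (26.3%) held none. Cells without it were found in every compared state, from 10.2% in state 6 to 33.8% in state 5. Among members with a mean of 2 to 3 UMIs, Egln1 had a ratio of 2.40, Ddit4 2.23 and Slc2a1 1.63.

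**Figure D5:**
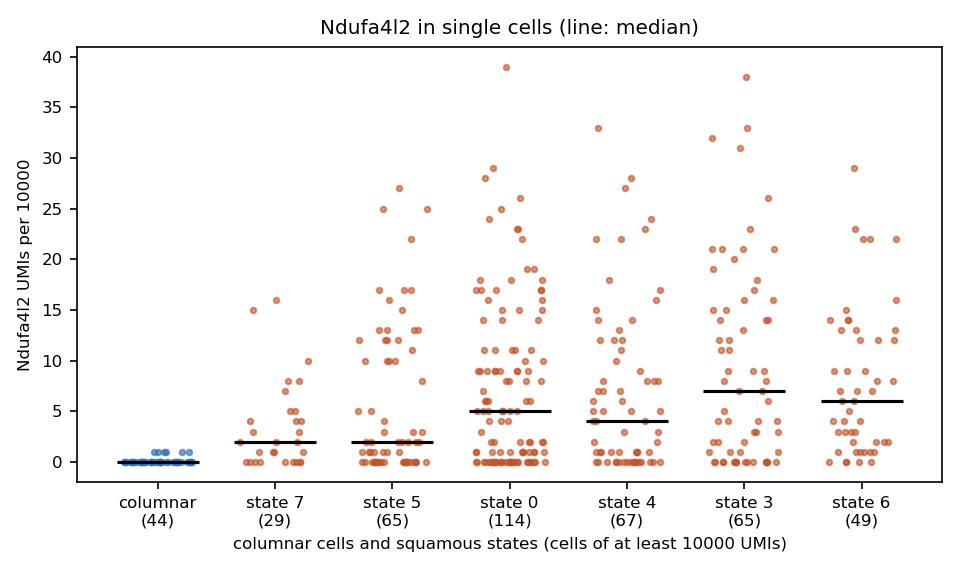
Ndufa4l2 UMIs in each cell thinned to 10000 UMIs (points, spread sideways at random), for columnar cells and 6 squamous states, with the median as a line and the number of cells in parentheses. No columnar cell exceeds 1 UMI, and every squamous state holds both cells at 0 and cells above 15 UMIs.

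Genes outside the set and outside the other pathway lists were then ranked by likeness to the summed hypoxia targets over squamous cells, and the closest were Bsg, Gja1, Prelid2, Ptges, Isg20, Anxa2, Scd2, H2-Ab1, Selenbp1 and Kctd11. Their Spearman correlations ran from 0.44 for Bsg to 0.34 for Kctd11 over 433 cells. The 99th percentile of the 4608 candidate genes was 0.21. These 10 lie above it by construction, since they were picked as the highest of the same candidates. Bsg encodes basigin, the partner that carries lactate exporters to the membrane, and its correlation was 0.42 without state 6 and 0.49 within state 0. Ptges, a prostaglandin synthase gene, and Gja1, which encodes connexin 43, stood at 0.42 and 0.44. Of the 10 genes, 9 were also among the 10 closest when Ndufa4l2 was left out of the targets. The members outside the targets ran from -0.04 for Ldhb to 0.70 for Egln3, so that the 10 values lay within their range.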

How the data were processed

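The labels and methods describe 10x Genomics 3′ single-cell libraries of organoid cells whose samples were marked with MULTI-seq lipid tags. The authors made the deposited UMI counts with Cell Ranger 3.1.0 on the mouse genome (mm10), as raw counts per gene and barcode, and assigned barcodes to tissues from the tags; no normalization had been applied. Counts were read with Python 3.11.15, pandas 2.3.3 and scipy 1.17.1. Barcodes outside 100 to 8500 genes, above 80000 UMIs or above a mitochondrial share of 20% were dropped. A cell was called squamous where Krt5, Krt14, Krt6a and Krt13 made up at least 0.75 of their sum with Krt8 and Krt18, and columnar at 0.25 or less, with at least 5 keratin UMIs.

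UMIs were summed per group, with exact Poisson intervals for levels, exact binomial intervals for folds and shares, and genes of at least 10 UMIs measured. A count of 0 allows 3 UMIs, or 0.163 CPM in squamous and 1.21 CPM in columnar cells. With 1 sample a tissue no test was run. Squamous states came from Leiden clustering (scanpy 1.11.5, leidenalg 0.10.2, resolution 0.8, 15 neighbours, 30 components, 2000 variable genes) without members and pathway genes; clusters whose median cell held under 7191 UMIs were not compared. Per-cell values used cells thinned to 10000 UMIs, leaving out 269 squamous and 2 columnar cells. Scrublet called 3 of 855 cells doublets (0.351%), which is too few to rely on, and they were kept. The fold, interval and thinning steps were checked on simulated data.

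All 34 members are named or counted. Of each pathway list, up to 4 genes with the largest fold among those of at least 10 CPM are named, as are the 10 genes outside all lists closest to the summed targets. A gene that this rule selects is not reported here. Members and lists were chosen with earlier results of these data known. The alternatives changed limits on cells, the keratin call, weighting, scaling, count minimums, doublets and clustering.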

Additional observations from a re-analysis of the deposited data

How the results depend on the processing

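No member with a fold past 2 reversed under any of 12 alternatives, and 8 of the 34 members moved by over 1.5 times in at least 1. For 9 members, none of them past 2-fold, the fold changed its side of 1 in at least 1 alternative (Adm, Ankrd37, Bnip3l, P4ha1, Pdk1, Pfkfb3, Pfkp, Tpi1 and Vegfa). The glycolysis median of -0.28 moved to -0.056 without limits on cells, -0.036 without upper limits on UMIs and genes and -0.10 with TMM scaling, beside medians of all genes of -0.01, -0.03 and 0.08. The hypoxia median of -0.15 moved to 0.18, 0.20 and 0.040 under the same settings, so its sign changed, and to -0.39 with equal weight for every cell. Glycolysis genes at least 2 times higher in squamous cells numbered 2 without limits, 2 without upper limits and 0 with a stricter keratin call (1 as reported). Hypoxia genes numbered 4 without upper limits, 4 with TMM and 4 without the top cell of each gene (2 as reported). The ratio of the highest over the lowest squamous state, 1.57 for glycolysis and 1.92 for hypoxia genes, was 1.39 and 1.45 at Leiden resolution 0.5, 1.68 and 2.28 with at least 10000 UMIs per cell, and 1.72 and 2.22 without doublets. For glycolysis it was 1.67 at resolution 1.2 and 2.19 with members among the variable genes, and for hypoxia 1.77 without the top cell of each member, an alternative added after seeing the data. The causes were not tested. The 46 columnar cells limit low genes most. No paired analysis was possible because each tissue is 1 sample.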

Other observations

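Genes of the unfolded protein and ATF4 responses, which share stress signals with hypoxia, differed more between the tissues than the hypoxia genes did in median, with a median log2 fold of 1.08 over 10 measured genes. Of these, 5 were at least 2 times higher in squamous cells and 1 in columnar cells, beside 14.8% and 19.4% of all measured genes. Their summed levels differed less, at 1439 and 1315 CPM, a ratio of 1.09 (1.06 to 1.14) beside 1.32 for the hypoxia genes. Asns, asparagine synthetase, stood at 238 CPM in squamous and 24.3 CPM in columnar cells, and Trib3, a pseudokinase that ATF4 induces, at 42.0 and 2.43 CPM. Chac1, which degrades glutathione, stood at 16.7 and 0.810 CPM (2 UMIs), while Xbp1, a factor of secretory cells, stood at 60.7 and 515 CPM. Of 17 genes that respond to tissue dissociation, 2 were at least 2 times higher in squamous and 5 in columnar cells, with a summed level of 4352 and 5558 CPM. Fos, Jund and Fosb, subunits of AP-1, stood at 165 and 645, 215 and 631, and 27.3 and 68.8 CPM, and Hspb1, a small heat shock protein, at 283 and 42.5 CPM.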
